A study of Mus musculus with 16 samples.

Results

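Osteoclasts are the bone-resorbing cells of the monocyte lineage, and 10 genes of these cells and of the signal that forms them were followed in mouse osteosarcomas with and without loss of Arid1a. The genes, and the gene lists used below, were chosen by name with earlier results of these data known. Acp5, Ctsk, Calcr, Oscar, Dcstamp, Ocstamp and Atp6v0d2 served as markers of the osteoclast, though RNA of whole tumors does not show which cells made them. Tnfrsf11a, Tnfsf11 and Tnfrsf11b encode the receptor RANK, its ligand RANKL and the decoy receptor osteoprotegerin. All 10 were found in the count table, which holds 25054 genes. RNA was measured in 16 tumors. The 8 KO tumors came from 8 mice that carried OsxCreERT2+/- with floxed alleles of p53 (p53fl/fl), of Rb1 (Rb1fl/fl) and of Arid1a (Arid1afl/fl). The 8 WT tumors came from 4 mice that carried OsxCreERT2+/-, p53fl/fl and Rb1fl/fl without the floxed Arid1a, so that conditional loss of p53 and Rb1 was shared by both groups. Tamoxifen had been given at 1 month of age at 400 ug/g, and the mice were of both sexes and older than 6 months. By the codes in the labels, N42 gave 4 WT tumors, N43 gave 2, and N215 and N25 gave 1 each, the last labeled as lung. A body site is given for the WT tumors only. The Cre recombinase is driven by Osterix, a factor of bone-forming precursors, so osteoclasts and macrophages are cells of the host in which it is not meant to act.

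An osteoclast forms when monocyte precursors fuse. The precursors carry Csf1r, the receptor for the growth factor M-CSF, and RANK on their surface. Osteoblasts, osteocytes and stromal cells supply RANKL, which binds RANK and acts through TRAF6, NF-kB and AP-1 on NFATc1, the main transcription factor of the osteoclast. Osteoprotegerin is secreted, binds RANKL and keeps it from RANK. Osteosarcoma grows in bone, where tumor cells, bone-forming cells and osteoclasts lie next to each other.

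The libraries stood apart in ways that touch these genes. KO libraries held between 1109487 and 15059640 counts (median 5367669) and WT libraries between 7806160 and 16962329 (median 14828152). Expression is given as CPM, the counts of a gene scaled to library sizes that edgeR's TMM method normalized. A count of 3 was worth 6.69 CPM in the KO tumor Massa, 4.03 CPM in Grilka, from 0.203 to 0.839 CPM in the other KO tumors and from 0.146 to 0.340 CPM in WT, so low expression was seen less well in KO. The ribosomal RNA genes reached a log2 CPM between 11.8 and 19.1 in KO (median 16.02) and between 9.76 and 14.1 in WT (median 10.4). The targeted gene, Arid1a, lay between 107 and 270 CPM in KO (median 179) and between 125 and 236 CPM in WT (median 166), and its fitted log2 difference, KO minus WT, was 0.16 ± 0.22 (standard error, adjusted p in edgeR = 0.715). Its count covers the whole gene, including exons that are not floxed, so it does not check the deletion. The summed level of 14 osteoblast and osteocyte markers ranged from 454 to 42776 CPM in KO (median 4714) and from 1918 to 54941 CPM in WT (median 37577). It was lowest in Prince. In the group means Col1a1 made up most of this sum, with 10731 CPM in KO and 25844 CPM in WT. Skeletal muscle markers summed to 114519 CPM in Oregon and 65628 CPM in Montana, lung markers to 26009 CPM in the N25 tumor and 10885 CPM in Massa, and a list of salivary gland genes, drawn up after these values were seen, to 124847 CPM in Prince. T and B cell, erythroid and neutrophil markers were highest in Zelda, with sums of 471, 733 and 419 CPM.

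The regions upstream of the osteoclast genes are shown because their transcription is known to be driven by NFATc1, AP-1, MITF and PU.1. Promoter windows from RefSeq (GRCm38.p6) reach from 250 bases before to 50 bases after a gene's start. They were found for 6 of the 10 genes, in 9 windows. Dcstamp, Ocstamp, Atp6v0d2 and Tnfrsf11b had no entry. Both strands of each window were searched for 4 motifs. The core of NFAT sites was written as GGAAA. The PU.1 motif was GAGGAA, which shares bases with the NFAT core and can overlap it. The MITF motif was TCATGTG. The AP-1 motif was TGANTCA. Capitals mark the matches. The windows of Ctsk (chr3:95498960-95499259, plus strand), of Oscar (chr7:3616108-3616407, minus strand) and of the third listed start of Acp5 (chr9:22130549-22130848, minus strand) held the most matches and are printed 5′ to 3′.
Ctsk: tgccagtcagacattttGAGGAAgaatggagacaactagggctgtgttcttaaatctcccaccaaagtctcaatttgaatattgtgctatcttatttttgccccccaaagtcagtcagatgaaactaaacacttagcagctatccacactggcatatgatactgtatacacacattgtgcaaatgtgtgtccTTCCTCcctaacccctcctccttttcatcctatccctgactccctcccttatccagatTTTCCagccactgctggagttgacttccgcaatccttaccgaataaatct
Oscar: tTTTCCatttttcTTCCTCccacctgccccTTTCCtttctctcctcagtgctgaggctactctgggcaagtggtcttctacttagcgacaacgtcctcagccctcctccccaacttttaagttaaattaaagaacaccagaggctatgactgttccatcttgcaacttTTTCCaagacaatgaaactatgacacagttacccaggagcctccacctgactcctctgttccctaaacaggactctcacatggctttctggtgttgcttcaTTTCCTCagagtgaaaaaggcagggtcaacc
Acp5: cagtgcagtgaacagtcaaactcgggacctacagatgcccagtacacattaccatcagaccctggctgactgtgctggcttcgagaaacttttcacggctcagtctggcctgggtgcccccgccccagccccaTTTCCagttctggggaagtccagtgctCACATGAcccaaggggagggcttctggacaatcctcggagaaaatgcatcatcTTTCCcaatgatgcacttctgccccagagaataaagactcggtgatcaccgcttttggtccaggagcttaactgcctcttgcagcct
The Ctsk window held 1 NFAT core and 2 PU.1 motifs, the Oscar window 4 NFAT cores and 2 PU.1 motifs, and the Acp5 window 2 NFAT cores and 1 MITF motif. Among the 9 windows, the PU.1 motif was found only in those of Ctsk and Oscar, and the MITF motif only in the printed Acp5 window. The Tnfrsf11a window and a Calcr window (chr6:3763574-3763873) held none of the 4 motifs. The AP-1 motif was in none of the 9 windows. Over all 32851 promoters of this length, 61.3% held the NFAT core, 28.3% the PU.1, 3.77% the MITF and 7.81% the AP-1 motif. A match is a description of the sequence, and the counts are summed per gene, so the start in use cannot be read from them.

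The 9 genes that could be tested all had lower fitted levels in KO than in WT, by 0.88 to 3.37 on the log2 scale, and none was past the threshold. Each gene varied widely within both groups, as the plot of log2 CPM by tumor shows. Of the 15413 genes put through the two-sided quasi-likelihood test of edgeR, 4.01% had an adjusted p under 0.05, 2.15% lower and 1.86% higher in KO. Of the 10 osteoclast and RANK genes, 9 passed the filter on low counts and 0 had an adjusted p under 0.05. At an unadjusted p under 0.05 there were 3 (Ctsk, Calcr and Tnfrsf11b), all lower in KO. Of all genes tested, 23.0% were past that level in either direction and 9.75% were lower. With DESeq2, which called 12.5% of the genes it tested and 4.77% as lower in KO, Tnfrsf11b alone was past the threshold (log2 fold change −3.28, adjusted p = 0.0201). The median log2 fold change of the 9 was −1.65, beside 0.10 over all genes tested, and 44.1% of all genes lay below 0. Under −1 lay 7 of the 9, and 9.02% of all genes. Several of the 9 rose and fell together across tumors (Pearson r = 0.98 for Acp5 and Ocstamp), so they are not 9 independent observations. The KO and WT values overlapped for each of the 9, and for 0.415% of all genes tested they did not. These tests treat the 8 WT tumors as independent. With counts summed per mouse, 8 KO against 4 WT mice, the adjusted p of the 10 genes lay between 0.656 and 0.940 in edgeR, and 0.0625% of all genes were called. With the mouse as a random effect in limma-voom 0.110% of all genes were called, and with a macrophage receptor score as a covariate in edgeR 0.0714%. None of the 10 that entered these 3 fits was called. With the macrophage receptor score, 8 of the 9 differences turned positive, from 0.96 to 3.01 with standard errors from 1.27 to 3.54, and Calcr stayed negative. Apart from Zelda (4.52), the KO tumors had scores of at most 3.24, and every WT tumor had at least 3.89. Genotype and score are thus hard to separate in this fit. In bulk tumors, the number of osteoclasts, the RNA per osteoclast and the content of other tissue cannot be told apart.

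**Figure D1:**
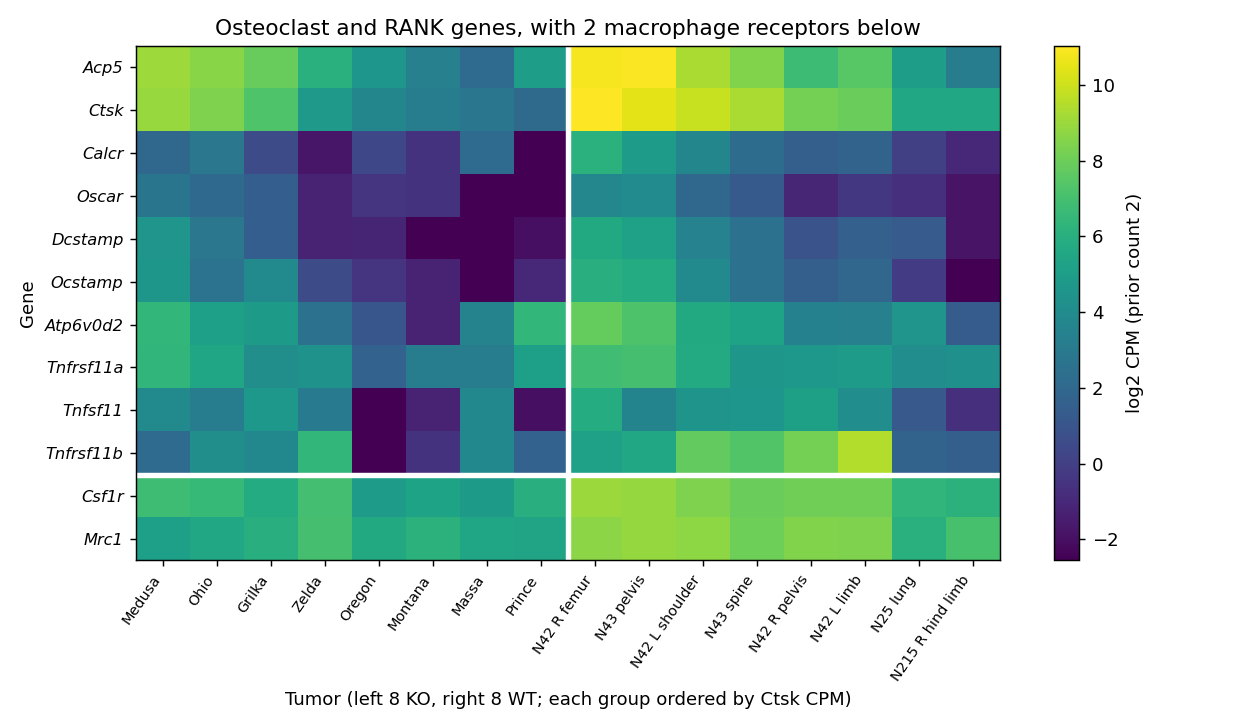
Log2 CPM (color, prior count 2) of the 10 osteoclast and RANK genes and of the macrophage receptors Csf1r and Mrc1 (rows) in 8 KO and 8 WT tumors (columns, ordered within a group by Ctsk CPM). The right femur tumor of N42 and the pelvis tumor of N43 are the brightest for the first 8 genes, Medusa, Ohio and Grilka are the brightest KO tumors for Acp5 and Ctsk, and Csf1r and Mrc1 vary less from tumor to tumor.

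Ctsk encodes cathepsin K, the protease that degrades bone collagen (ENSMUSG00000028111, chr3:95499256-95509362, GRCm38, plus strand). It was the most abundant of the 10 genes per length, with a mean of 279 CPM per kilobase of exon. In KO its level was 483 CPM in Medusa, 339 in Ohio, 154 in Grilka, 27.5 in Zelda, 12.6 in Oregon, 8.67 in Montana, 6.69 in Massa (3 counts) and 4.23 in Prince. In WT it was 2088 CPM in the right femur and 959 in the left shoulder tumor of N42, 294 and 243 in its right pelvis and left limb tumors, 1394 and 633 in the pelvis and spine tumors of N43, 48.2 in N25 and 47.2 in N215. Thus 3 KO tumors lay above the N25 and N215 tumors, and the other 5 lay below every WT tumor. The group means were 130 ± 185 CPM in KO and 713 ± 727 CPM in WT (SD, n = 8 each). The fitted log2 difference, KO minus WT, was −2.46 ± 1.03 (standard error, adjusted p in edgeR = 0.167), a level 5.49 times higher in WT that did not pass the test.

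Acp5 encodes TRAP, the tartrate-resistant acid phosphatase by which osteoclasts are stained (ENSMUSG00000001348, chr9:22126727-22135711, minus strand). The annotation places 6530413G14Rik on the opposite strand over the whole gene, and since the strand of the reads is not given in the sources used here, reads of both genes cannot be told apart. Acp5 ran from 4.46 CPM in Massa to 532 in Medusa in KO (median 49.3) and from 8.96 CPM in N215 to 1947 in the N43 pelvis tumor in WT (median 266). Its order of tumors was much like that of Ctsk, with the same 3 KO tumors above the others. The groups differed by −1.97 ± 1.05 on the log2 scale (standard error, adjusted p in edgeR = 0.269).

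Atp6v0d2 encodes a subunit of the proton pump that acidifies the space under the osteoclast (ENSMUSG00000028238, chr4:19876841-19922605, minus strand). It lay between 0.255 and 87.9 CPM in KO (median 19.7) and between 2.50 and 228 CPM in WT (median 31.2). Prince, the tumor with the lowest Ctsk, had 87.4 CPM of Atp6v0d2, close to the 87.9 CPM of Medusa. In this gene the salivary gland RNA of Prince moved with a high value, and its part in it was not tested. KO minus WT was −0.98 ± 0.94 on the log2 scale (standard error, adjusted p in edgeR = 0.570), and −0.33 without the N42 femur.

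Dcstamp and Ocstamp encode the membrane proteins that osteoclast precursors need to fuse. Dcstamp (ENSMUSG00000022303, chr15:39745930-39760938, plus strand) lay between 0 and 22.8 CPM in KO (median 0.275) and between 0.113 and 50.9 CPM in WT (median 4.33). Ocstamp (ENSMUSG00000027670, chr2:165393760-165400405, minus strand) lay between 0 and 24.5 CPM in KO (median 0.924) and between 0 and 63.8 CPM in WT (median 4.76). Both were highest in the N42 femur, the N43 pelvis and, among KO tumors, Medusa. Dcstamp was at 3 counts or fewer in 5 KO and 1 WT tumors, and Ocstamp in 3 KO and 1 WT tumors, N215 in WT in both cases. On the log2 scale KO minus WT was −1.65 ± 1.16 for Dcstamp and −1.64 ± 1.15 for Ocstamp (standard errors, adjusted p in edgeR = 0.414 and 0.416). With single tumors left out, Dcstamp ran from −3.12 without Medusa to −0.97 without the N42 femur, and Ocstamp from −2.68 to −1.01 without the same tumors. Without the N42 femur and N43 pelvis tumors, left out after their levels were seen, the sign turned for Dcstamp (0.14), Ocstamp (0.32) and Atp6v0d2 (0.51).

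Calcr, Oscar and Tnfrsf11a encode receptors of the osteoclast and its precursor. Calcr, the calcitonin receptor (ENSMUSG00000023964, chr6:3685680-3764714, minus strand), through which calcitonin halts resorption, was low in KO, from 0 in Prince to 6.97 CPM in Ohio (median 1.23). In WT it ran from 0.340 CPM in N215 to 69.1 CPM in the N42 femur (median 3.92). The N43 pelvis had 31.3 CPM and the N42 left shoulder 12.8 CPM, and Ohio came next, above the other 5 WT tumors. Calcr differed by −2.83 ± 1.10 on the log2 scale (standard error, adjusted p = 0.138 in edgeR and 0.0504 in DESeq2). It was −1.87 without the N42 femur and −0.91 without that tumor and the N43 pelvis. Oscar, an immune-type receptor that binds exposed collagen (ENSMUSG00000054594, chr7:3609813-3616157, minus strand), was the gene that did not pass the filter. It lay between 0 and 6.34 CPM in KO (median 0.535) and between 0.113 and 15.6 CPM in WT (median 1.46), with 3 counts or fewer in 5 KO and 1 WT tumors. Without the filter KO minus WT was −1.33 ± 1.07 on the log2 scale for Oscar (standard error, adjusted p in edgeR = 0.477).

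Tnfrsf11a, which encodes RANK (ENSMUSG00000026321, chr1:105780718-105847981, plus strand), varied least of the 10. It was above 3 counts in every tumor and lay between 3.08 and 84.3 CPM in KO (median 18.8) and between 17.3 and 130 CPM in WT (median 27.5). Medusa, with 84.3 CPM, lay above 6 of the 8 WT tumors. The SD of its log2 CPM was 1.502 in KO and 1.14 in WT, where the 10 genes had median SDs of 2.65 and 2.31. Over all genes tested the median SDs were 1.11 in KO and 0.51 in WT. Tnfrsf11a differed between KO and WT by −0.88 ± 0.60 on the log2 scale (standard error, adjusted p in edgeR = 0.402). That value was −1.38 without Medusa and −0.54 without the N43 pelvis.

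Tnfsf11, which encodes RANKL (ENSMUSG00000022015, chr14:78277445-78308043, minus strand), was low in both groups. In KO it was 25.5 CPM in Grilka, 15.4 in Medusa, 13.4 in Massa, 9.16 in Ohio and 8.41 in Zelda, and 0.255, 0.083 and 0 CPM in Montana, Prince and Oregon, at 1, 1 and 0 counts. In WT it was 58.7, 36.4, 22.3 and 17.3 CPM in the femur, pelvis, shoulder and limb tumors of N42, 23.8 and 11.9 CPM in the spine and pelvis tumors of N43, 2.19 CPM in N25 and 0.454 CPM in N215. The KO tumors with little or no Tnfsf11 were those with much muscle or salivary gland RNA, whose part in this was not tested. For Tnfsf11 KO minus WT was −1.36 ± 0.98 on the log2 scale (standard error, adjusted p in edgeR = 0.426).

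Tnfrsf11b, which encodes osteoprotegerin (ENSMUSG00000063727, chr15:54250619-54278484, minus strand), had the most negative fitted difference and the smallest p of the 9 tested. In KO it was 86.3 CPM in Zelda, 17.8 in Ohio, 13.4 in Grilka and in Massa, 4.43 in Medusa, 3.07 in Prince, 0.51 in Montana and 0 in Oregon. In WT it was 699, 296, 220 and 37.4 CPM in the limb, pelvis, shoulder and femur tumors of N42, 162 and 47.8 CPM in the spine and pelvis tumors of N43, 3.29 CPM in N25 and 2.72 CPM in N215. The 4 highest values were all WT, Zelda came next, and the N25 and N215 tumors lay among the low KO tumors. The means were 17.4 ± 28.6 CPM in KO and 184 ± 235 CPM in WT (SD, n = 8 each). The fitted log2 difference was −3.37 ± 1.17 (standard error, adjusted p in edgeR = 0.0989), a level 10.35 times higher in WT that did not pass the test. The edgeR call depended on the tumors included. The log2 difference was −4.73 with an adjusted p of 0.0272 without Zelda and −3.70 with 0.0388 without N215 and N25, a pair left out after the data were seen. Without the 4 tumors of N42 it was −1.54 with an adjusted p of 0.773, and over all 30 alternatives the adjusted p lay between 0.0201 and 0.925.

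**Figure D2:**
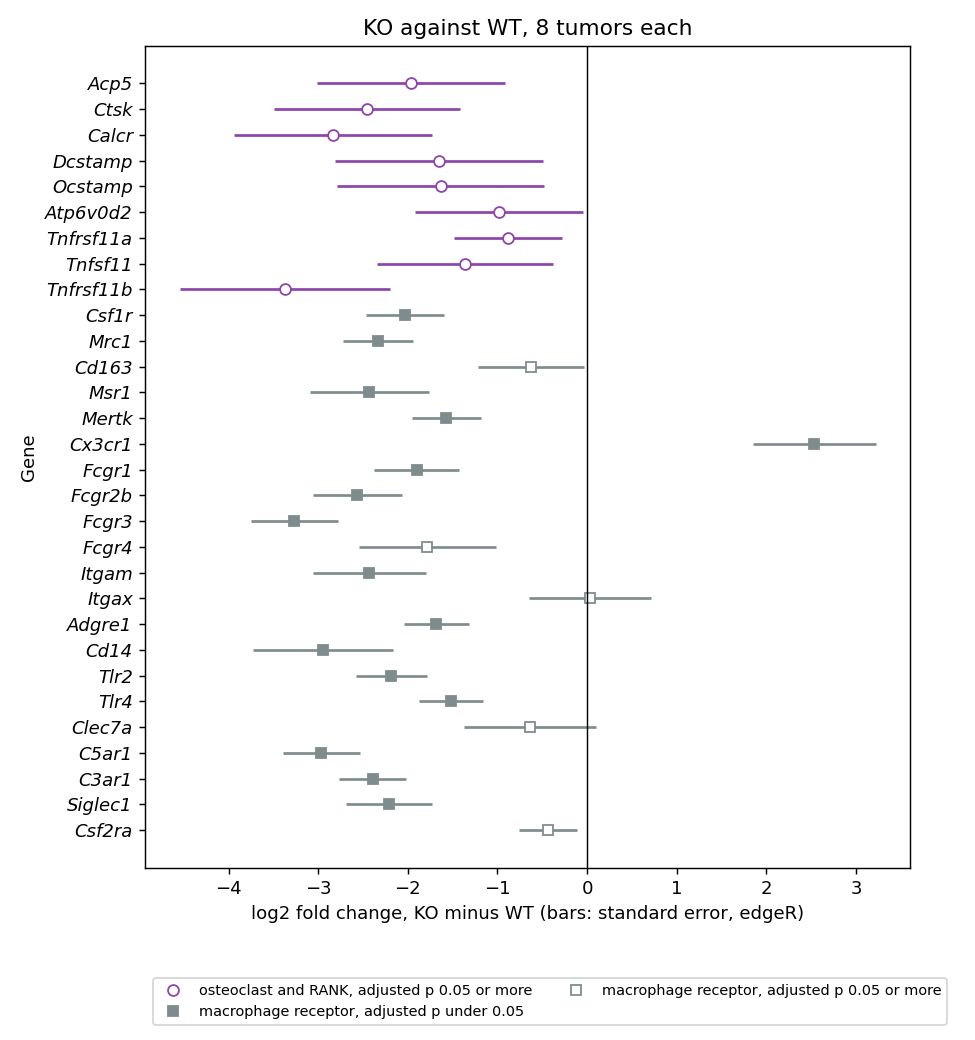
Log2 fold change, KO minus WT, with its standard error in edgeR, for the 9 tested osteoclast and RANK genes (circles) and 21 tested macrophage receptors (squares), where filled symbols have an adjusted p under 0.05. The circles are all below 0 and open, with standard errors from 0.60 to 1.17, and 15 of the squares below 0 are filled, as is Cx3cr1 above 0.

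The ligand and its decoy were set side by side within each tumor, as the share of Tnfsf11 in the counts of Tnfsf11 plus Tnfrsf11b. This share is a description, because the genes differ in length and in the cells that make them. Among the WT tumors it was 61.1% in the N42 femur (95% exact binomial interval 58.7% to 63.4%), 20.0% in the N43 pelvis (17.7% to 22.4%) and 12.8% in the N43 spine (11.7% to 13.9%). It was 10.9% in the right pelvis, 9.17% in the left shoulder and 2.41% in the left limb tumor of N42. The pair with the highest Ctsk, the N42 femur and the N43 pelvis, thus had the highest shares among the 6 tumors of N42 and N43. Among KO tumors the share was 77.7% of 94 counts in Medusa (67.9% to 85.6%), 65.5% of 29 counts in Grilka (45.7% to 82.1%), 33.9% in Ohio (28.4% to 39.8%) and 8.88% in Zelda (7.44% to 10.5%). The 3 KO tumors with the highest Ctsk had a higher share than Zelda. Several tumors did not follow the order of Ctsk. N25 had a share of 40.0% of 85 counts (29.5% to 51.2%) at 48.2 CPM of Ctsk. Grilka, with 154 CPM of Ctsk, had a higher share than Ohio, with 339 CPM. The left shoulder tumor of N42, with 959 CPM, had a lower share than its right pelvis tumor, with 294 CPM. The share was 14.3% of 28 counts in N215, 50.0% of 12 in Massa, 33.3% of 3 in Montana, 2.63% of 38 in Prince and no counts in Oregon. The intervals cover counting error only.

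**Figure D3:**
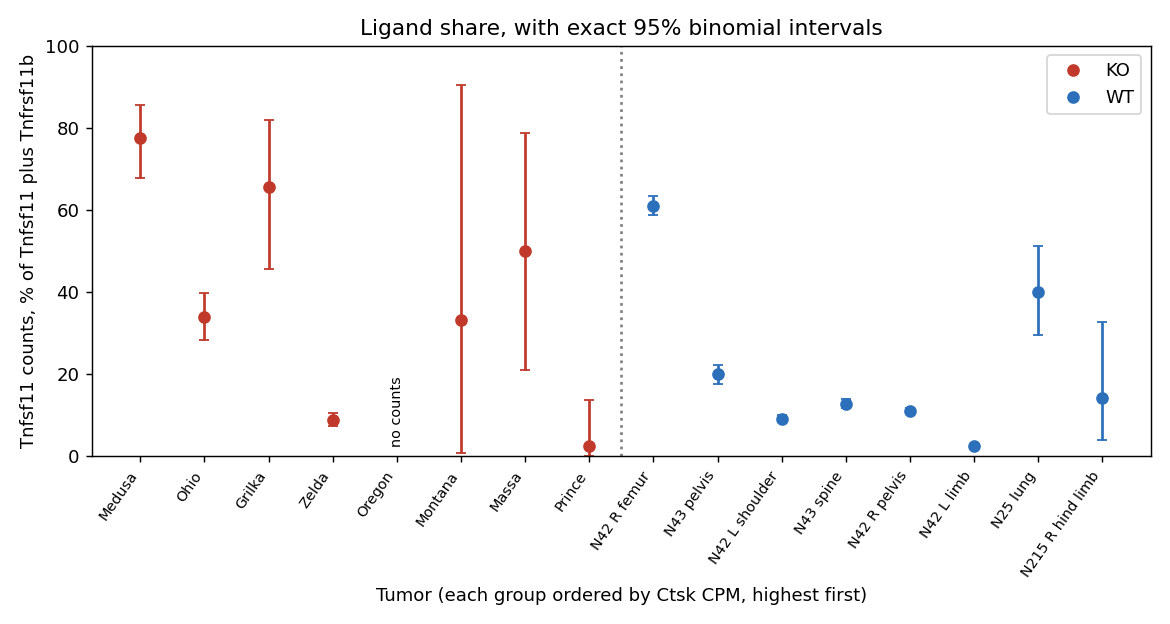
Tnfsf11 counts as a percent of Tnfsf11 plus Tnfrsf11b counts in each tumor, with exact 95% binomial intervals, ordered within KO and WT by Ctsk CPM from high to low. Medusa (77.7%) and the N42 femur (61.1%) lead their groups in both Ctsk and share, and the wide intervals belong to tumors with few counts.

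Within mouse N42, whose tumors share a genotype and an animal, the osteoclast genes had larger folds between tumors than the macrophage receptors Csf1r and Mrc1. From the lowest to the highest of its 4 tumors, Ctsk differed 8.59-fold, Acp5 16.7-fold, Calcr 25.4-fold, Dcstamp 29.1-fold, Ocstamp 22.6-fold and Atp6v0d2 22.5-fold. Tnfrsf11a differed 4.59-fold and Tnfsf11 3.40-fold, while Csf1r differed 1.86-fold and Mrc1 1.22-fold. The femur tumor was the highest in all of these but Mrc1. Tnfrsf11b went the other way and was lowest in the femur tumor and 18.7-fold higher in the left limb tumor. In N43 the pelvis tumor exceeded the spine tumor 5.54-fold in Acp5, 2.20-fold in Ctsk, 9.49-fold in Ocstamp and 5.27-fold in Tnfrsf11a, beside 1.96-fold in Csf1r and 1.79-fold in Mrc1. The fold of Ctsk was thus close to that of Csf1r in this mouse. There, Tnfsf11 was 1.99-fold and Tnfrsf11b 3.40-fold higher in the spine. With 1 library per tumor, these folds have no replicate check.

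Site was compared between the 3 trunk tumors (spine and pelvis) and the 4 limb tumors (hind limb, femur, limb and shoulder) of WT mice. These 7 tumors came from 3 mice, with tumors of N42 in both classes, and the fit treats them as independent. None of the 10 genes was past the threshold, with adjusted p of at least 0.994 in edgeR, and 0 of the 17131 genes tested were called (0%). At an unadjusted p under 0.05 there were 641 genes (3.74%), none of them among the 10, and DESeq2 called 31 genes. The log2 difference, trunk minus limb, was −0.09 for Ctsk (standard error 1.09), 0.30 for Acp5 (1.43) and −0.50 for Tnfrsf11b (1.39). The values of the 10 genes overlapped between the classes, and those of 4.89% of all genes did not. Each site class holds a tumor with very high osteoclast genes, the femur of N42 in the limb and the pelvis of N43 in the trunk, and without 1 or the other the sign of the difference turned for 9 of the 10.

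Macrophages arise from the same lineage and share Csf1r with the osteoclast precursor, and their receptors served as the comparison. Of 22 macrophage receptor genes, 21 were tested, 19 lay below 0, 15 were lower past the threshold and 1, Cx3cr1, the fractalkine receptor, was higher (2.53 on the log2 scale, adjusted p in edgeR = 0.0461). Their summed level ran from 197 to 760 CPM in KO and from 541 to 2006 CPM in WT. Their median log2 difference was −2.03, beside −1.65 for the osteoclast and RANK genes and 0.10 for all genes. Csf1r lay between 29.0 and 125 CPM in KO (median 58.4) and between 71.2 and 499 CPM in WT (median 270). Only N215 and N25 among the WT tumors lay below Zelda, the highest KO tumor. KO minus WT on the log2 scale was −2.03 ± 0.44 for Csf1r (standard error, adjusted p in edgeR = 0.0164). The difference in Mrc1, the mannose receptor, was −2.33 ± 0.39 (standard error, adjusted p in edgeR = 0.00530). The 3 most abundant others per length also passed, Fcgr3, an Fc receptor, with −3.27, Cd14, which binds bacterial lipopolysaccharide, with −2.95, and Mertk, a receptor for dying cells, with −1.57 (edgeR adjusted p = 0.00259, 0.0433 and 0.0313). The standard errors of the osteoclast and RANK genes, from 0.60 to 1.17, exceeded those of Csf1r and Mrc1, and so did their spread within groups. The median SD of log2 CPM of the macrophage receptors was 1.15 in KO and 1.00 in WT. Some of these receptors reached the range of the osteoclast and RANK genes. Cd14 and Msr1 had standard errors of 0.78 and 0.67, and SDs of 2.21 and 2.49 in KO. The macrophage receptor calls depended on the fit and on the tumors included. The count of 15 fell to 0 with counts summed per mouse, with the mouse as a random effect, without the 4 tumors of N42 and with ribosomal RNA content as a covariate. Cx3cr1 was not called in these fits either, nor with no filter on low counts or without Massa and Grilka. With counts summed per mouse, the log2 differences were −1.58 for Csf1r and −1.90 for Mrc1. That fit and the one with the mouse as a random effect called 0.0625% and 0.110% of all genes.

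Whether Ctsk differed from Csf1r was tested directly. The log2 ratio of Ctsk to Csf1r was −0.76 ± 2.25 in KO and 0.63 ± 1.11 in WT (SD, n = 8 each), with a KO minus WT value of −1.39 (p = 0.138, exact permutation test, two-sided). With the mean of the macrophage receptor list in place of Csf1r the difference was −1.62 (exact permutation test, p = 0.165). Both tests exchange tumors as if independent, although the 8 WT tumors came from 4 mice, and on that basis the smallest p they can give is 0.000155. In KO the ratio ran from −3.81 in Prince to 2.12 in Medusa and in WT from −0.82 to 2.06. The differences in the ratio of the other 9 genes to Csf1r were not tested and ran from −1.54 for Tnfrsf11b to 0.96 for Oscar.

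**Figure D4:**
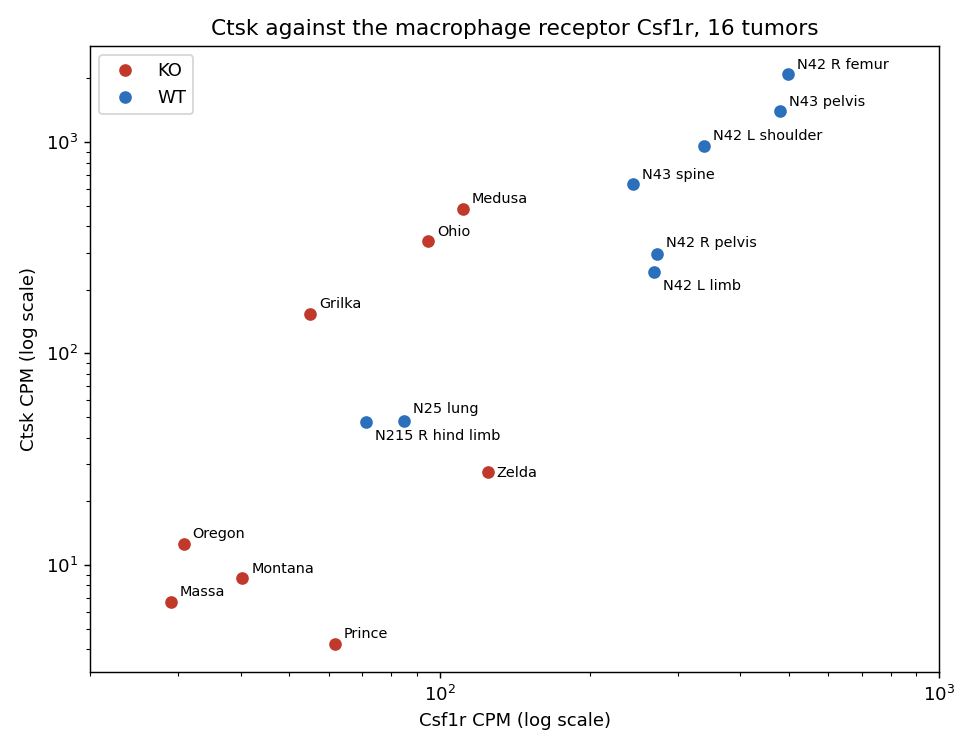
Ctsk CPM against Csf1r CPM (log scales) in 8 KO (red) and 8 WT (blue) tumors, each point 1 tumor. Medusa and Ohio have more Ctsk (483 and 339 CPM) than the pelvis and limb tumors of N42, which have more Csf1r, Grilka has 154 CPM, and the remaining 5 KO tumors lie lowest in Ctsk at 4.23 to 27.5 CPM.

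The rest of the RANK pathway was read from a list of 68 genes, of which 66 were tested. Of these, 44 lay below 0 and 22 above, the median difference was −0.34 on the log2 scale, and 1 passed the threshold, lower in KO. At an unadjusted p under 0.05 there were 17 (25.8%), where 23.0% of all genes were. The gene past the threshold was Fcer1g, the Fc receptor gamma chain through which Oscar signals, which differed by −2.19 ± 0.44 on the log2 scale (standard error, adjusted p in edgeR = 0.0131). With counts summed per mouse its adjusted p was 0.440 in edgeR. It is also expressed in macrophages and mast cells. Its partner adaptor Tyrobp (DAP12) had −1.58 ± 0.44 (standard error, adjusted p = 0.0504 in edgeR and 0.0132 in DESeq2). Of the costimulation genes, all 5 tested lay below 0, with a median of −1.29.

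The machinery of resorption included Mmp9, the gelatinase of osteoclasts, and Mmp14, a membrane-bound protease that stromal cells also make. Mmp9 had 198 ± 290 CPM in KO and 1462 ± 1671 CPM in WT (SD, n = 8 each), and KO minus WT was −2.88 ± 1.25 on the log2 scale (standard error, adjusted p in edgeR = 0.179). Mmp14 had −1.60 ± 0.58 (standard error, adjusted p = 0.112 in edgeR and 0.0470 in DESeq2). Of the 15 resorption genes, 13 lay below 0, with a median of −0.82, and none was past the threshold. The adaptors and kinases that act below RANK were nearer to 0, with 10 of 18 below and a median of −0.08. The transcription factors had 9 of 14 below 0 and a median of −0.42, and the repressors 2 of 5 and 0.27. Of the regulators of the ligand, 4 of 7 tested lay below 0, with a median of −0.12. Of the growth factor genes for Csf1r, Csf1 lay below 0 and Il34 above it, neither past the threshold.

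The 9 tumors with the highest sum of osteoblast and osteocyte markers, each at 16383 CPM or more against 7136 CPM or less, were also the 9 tumors with the highest Ctsk, Acp5 and Ocstamp. Inside this set Ctsk was at least 154 CPM and outside it at most 48.2 CPM. The cut at 9 tumors was not set in advance. Cuts at other numbers of tumors were also scored and are not shown here. The share of all genes that split the same tumors was not computed, so how unusual this split is cannot be said. In the group means, Col1a1 made up most of the marker sum. The set holds the 6 tumors of N42 and N43 and the KO tumors Grilka, Medusa and Ohio. For Calcr, Oscar, Dcstamp, Tnfrsf11a, Tnfsf11, Tnfrsf11b and Csf1r, 8 of the 9 highest tumors were in it, and for Atp6v0d2 7. For the osteoblast markers themselves the median log2 difference, KO minus WT, was −0.84 over the 13 tested, with 9 below 0 and 0 past the threshold. Their part in the differences between KO and WT was not tested.

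Across the 16 tumors, the genes whose log2 CPM followed each of the 9 tested genes most closely were found among all genes tested. For Acp5 they were Ocstamp (Pearson r = 0.98), the processed pseudogene Gm20056 (0.97), Mmp9 (0.96), Dcstamp (0.95) and Tm4sf19 (0.94). For Ctsk they were Mrc2 (0.96), Tm4sf19 (0.95), Adcy3 (0.95), Olfml3 (0.94) and Mmp9 (0.94). Mmp9 and Tm4sf19 were thus near to both enzymes. Dcstamp was followed by Acp5, Mmp9, Siglec15, Ocstamp and Slc9b2 (r from 0.94 to 0.95), and Ocstamp by Acp5, Gm20056, Nyap2, Tm4sf19 and Slc9b2 (0.96 to 0.98). Calcr had lower values, with Antxr2 (0.91), Cd68, Adarb1, Apbb2 and Acap2 (0.84). The pump subunit and RANK shared neighbors. Atp6v0d2 was followed by Slc37a2 (0.93), Dock5 (0.93), Arsb, Src and Apobr (0.83), and Tnfrsf11a by Slc37a2 (0.93), Arsb (0.92), Snx10 (0.91) and Gnptab (0.89). The ligand and its decoy had other neighbors. Tnfsf11 was followed by Gm42793 (0.95), Eif5a2, Fxyd5, Rapgef4 and Slc25a24 (0.90), and Tnfrsf11b by Gnai3 (0.91), Skil, Stk17b, Rbm7 and Man1a2 (0.90). The r between Tnfsf11 and Tnfrsf11b was 0.81, and that between Tnfrsf11b and Acp5 was 0.54. These are descriptions over 16 tumors that share mice and differ in depth and tissue content.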

How the data were processed

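RNA from 16 tumors was extracted (RNeasy), prepared with TruSeq after RiboZero removal of ribosomal RNA and read for 50 cycles on an Illumina HiSeq. The authors aligned the reads with Novoalign 2.08.01 to mm10 joined with splice junctions made by USeq 8.8.8 from Ensembl build 74, allowed up to 50 alignments per read and kept the best. The deposited values are raw counts per gene, made by USeq before the authors ran DESeq2 1.26.0. They are whole numbers, and no gene has a total under 6. Strand is not given in the sources used here. The labels name neither a batch nor a date.

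The 10 genes and all gene lists were chosen with earlier results of these data known. Counts of 25054 genes were tested with edgeR 4.0.16 in R 4.3.3 (TMM, filterByExpr set to at least 10 counts and to 15 in total, then glmQLFit and glmQLFTest, two-sided, Benjamini-Hochberg over all genes tested, threshold 0.05). The biological coefficient of variation was 70.4%. Log2 CPM used a prior count of 2. Standard errors of edgeR log2 differences were computed as the absolute difference divided by the square root of the F statistic. Alternatives used DESeq2 1.42.0, DESeq2 size factors, no filter, counts summed per mouse, voom in limma 3.58.1 (tumors of 1 mouse correlated, through statmod 1.5.0), covariates and fewer tumors. The scripts were tested on simulated data. Positions and exon lengths came from GENCODE vM21 (GRCm38), later than the models the authors counted on, where 24997 genes were found by identifier. Where the labels name no separate culture or litter, p-values measure the spread between these tumors, several of which share a mouse. The fits with counts summed per mouse or with the mouse as a random effect take the mouse into account.

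Named genes were the 10, Csf1r, Mrc1 and the 3 most abundant other macrophage receptors per kilobase, the RANK pathway genes past the threshold and the 3 most abundant others, and the 5 genes with the highest Pearson r for each tested member. For Tnfrsf11a, 1 of these is not reported here. Cx3cr1, Col1a1, Csf1, Il34, Arid1a and 6530413G14Rik fall outside this rule and were named after their values were seen. Intervals of shares are exact Clopper-Pearson intervals at 95%, from scipy 1.17.1. Python 3.11.15, numpy 2.4.6, pandas 2.3.3 and matplotlib 3.10.9 were used for tables and figures.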

Additional observations from a re-analysis of the deposited data

How the results depend on the processing

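No paired analysis was possible because the KO and WT tumors share no mice and the labels give no replicate numbers. Of 270 values for the 9 tested genes between KO and WT under the alternatives, 256 kept their direction and side of the threshold, 3 came past the threshold (Tnfrsf11b with DESeq2, without Zelda, and without N215 and N25) and 11 changed sign. With the macrophage receptor score as a covariate, the log2 fold changes were 1.93 for Acp5, 1.55 for Ctsk, 2.21 for Dcstamp, 1.42 for Ocstamp, 0.96 for Atp6v0d2, 1.40 for Tnfrsf11a, 0.96 for Tnfsf11, 3.01 for Tnfrsf11b, 0.83 for Cd14, 0.25 for Mertk and 0.77 for Mmp9, with adjusted p between 0.925 and 0.992, and Calcr kept its sign at −1.55. Without the N42 femur and N43 pelvis they were 0.14 for Dcstamp, 0.32 for Ocstamp and 0.51 for Atp6v0d2. Only Zelda among the KO tumors had a macrophage receptor score above that of any WT tumor. The cause of these changes was not tested.

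Of the 10 genes, 0 were past the threshold in the fit of all 16 tumors, 1 with DESeq2, 1 without N215 and N25, and 0 to 1 when 1 tumor was left out. Over all genes, 618 were called, and 2517 with DESeq2, 10 with counts summed per mouse, 17 with limma-voom, 8 without N42, 372 without Montana and Oregon, 11 with the macrophage score, 7 with ribosomal RNA content, 1518 without N215 and N25, 138 without the N42 femur and N43 pelvis, 7 with 1 tumor per mouse, and from 252 (without the N42 left shoulder) to 1348 (without Zelda) with 1 tumor left out. Of the 15 macrophage receptors called lower, there were 0 with counts summed per mouse, limma-voom, 1 tumor per mouse, without N42 and with either covariate (the macrophage score is the mean of these same receptors, so their loss under it follows from its construction), 7 without Montana and Oregon, 6 without the N42 femur and N43 pelvis, and 9 (without the right pelvis, the femur or the left shoulder tumor of N42) to 15 with 1 tumor left out. The alternatives without N215 and N25, without the N42 femur and N43 pelvis, and with 1 tumor per mouse, and all those for macrophage receptors, were chosen after seeing the data.

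Between trunk and limb, 0 genes were called with 1 tumor left out and 31 with DESeq2, and 27 of 110 values of the 10 genes changed sign. Without N215 they were −0.11 for Acp5, −0.35 for Ocstamp and −0.13 for Tnfrsf11a. With 1 tumor left out the log2 difference ranged from −1.52 to 1.54 for Acp5, −1.56 to 1.63 for Atp6v0d2, −2.55 to 1.22 for Calcr, −0.84 to 0.89 for Ctsk, −2.09 to 1.67 for Dcstamp, −2.26 to 1.73 for Ocstamp, −1.76 to 1.97 for Oscar, −1.11 to 0.83 for Tnfrsf11a, −1.20 to 0.98 for Tnfrsf11b and −0.47 to 0.84 for Tnfsf11. The low ends were mostly without the N43 pelvis and the high ends mostly without the N42 femur. Low counts limit Calcr, Oscar, Dcstamp and Ocstamp in KO, where 3 counts in Massa and Grilka are worth more CPM than most of their values.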
